A study of Danio rerio with 1152 samples.

Results

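PRDM14, KAZALD2, PNX, PCP4L1, GPD1B and FAM212AA are 6 of the 13902 genes in a table of transcript counts from single cells of the zebrafish blastoderm. They were chosen because their counts were low in cells that carry the transcripts of the embryonic margin, so their difference along the margin is given here as a description and is not tested. The embryos came from TL/AB in-crosses, had no genetic or chemical treatment, and were taken at 50% epiboly, about 6 hours after fertilization at 28°C. Blastoderm caps were freed of yolk and dissociated, and single cells were picked by pipette into 1152 wells, shared equally among 3 experimental batches. Whether a batch held 1 embryo or several is not given in the labels, so what separates batches may be technical, biological or both.

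At this stage the cap of cells has spread over the yolk. Its rim, the margin, is where Nodal, FGF and Wnt signals induce mesoderm and endoderm, and where the T-box genes TA (the zebrafish Brachyury orthologue no tail) and TBX16 (spadetail) are expressed. Cells nearer the animal pole form ectoderm and express SOX3, a SoxB1 transcription factor. BMP signals on the ventral side induce VED, a homeobox repressor of dorsal genes, and FOXI1, a forkhead factor of ventral ectoderm, while ADMP, a BMP-family ligand, is transcribed dorsally. A single outer epithelium, the enveloping layer (EVL), covers the deep cells.

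The 6 genes encode unlike proteins. PRDM14 is a PR-domain zinc-finger factor, known in mouse for pluripotency and primordial germ cells and in zebrafish for motor neuron development. PNX is a homeobox factor of zebrafish primary neurons. KAZALD2 encodes a secreted protein with a Kazal-type domain. PCP4L1 encodes a small protein with an IQ motif. GPD1B is a cytosolic glycerol-3-phosphate dehydrogenase, which links glycolysis to glycerolipid synthesis. FAM212AA is the older name of an Inka-box gene, a family that inhibits the kinase PAK4 in other species. No sequence or genome position of these genes was used here.

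Wells with at least 2000 detected genes were kept, 1000 in all (90.4%, 77.1% and 92.97% of the wells of batches 1, 2 and 3), with 5307 to 132749 unique molecular identifiers (UMIs, here random tags of 5 bases) each and batch medians of 57293, 55922.5 and 35746. The keratin genes KRT4, KRT5, KRT8, KRT18 and CYT1 separated EVL-like cells, 23.2% of those kept, from 768 deep cells, although 444 cells lay between posterior probabilities of 0.1 and 0.9. The summed level of the 12 EVL markers in the table was 10.9 to 21.4 UMIs per 10000 in EVL-like cells and 5.56 to 8.02 in deep cells. Deep cells were ordered within each batch by a margin score, the mean of the T-box genes TA and TBX16, the homeobox genes MIXL1 and EVE1, and the signal genes NDR1, LFT2, FGF8A and WNT8A. A pair of wells, 1 in batch 1 and 1 in batch 2, differed by less than sampling noise (chi-square 0.50 per degree of freedom, against 1.09 for the next pair). Both held 0 UMIs of KAZALD2, PRDM14, PCP4L1 and GPD1B. A level below is the number of UMIs of a gene per 10000 UMIs of all genes, summed over the cells of a class in a batch, and each mean ± SD is over the 3 batches.

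PRDM14 was close to absent from margin cells. In the lowest tertile of the margin score (margin-low) its level was 0.162, 0.089 and 0.263 in batches 1, 2 and 3, and in the highest tertile (margin-high) it was 0.020, 0.007 and 0.009. Margin-high cells held 16 UMIs of PRDM14, 7.17% of those in both tertiles. The margin-low batches were all above the margin-high batches, and the means differed 14.5-fold. How many of all genes separate in this way along the margin was not counted, here or for the genes below. Over sextiles of the score the mean level of PRDM14 went from 0.217 ± 0.097 in the lowest to 0.006 ± 0.006 in the highest, where batch 3 had 0 UMIs.

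The other transcription factor, PNX, had margin-low levels of 0.364, 0.473 and 0.548 and margin-high levels of 0.214, 0.139 and 0.059, a 3.37-fold difference of means. The groups did not overlap, but the batches differed in course. In batch 1 PNX was highest in the third sextile, at 0.618, and was still 0.386 in the fifth, whereas in batch 3 it was 0.553 in the second sextile and 0.067 in the fifth.

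KAZALD2, the secreted Kazal-type protein, stood at 0.668, 0.572 and 0.502 in margin-low and 0.210, 0.169 and 0.071 in margin-high cells, a 3.87-fold difference. Its highest mean, 0.623 ± 0.061, was in the second sextile rather than in the lowest, 0.548 ± 0.142. Those 2 sextiles differed by less than the spread between batches.

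PCP4L1 had margin-low levels of 0.291, 0.315 and 0.263 and margin-high levels of 0.149, 0.073 and 0.065. Its course was not a steady decline. In every batch the second sextile (0.421, 0.383 and 0.443) was above the lowest (0.154, 0.242 and 0.121), and the highest sextile had 0.035, 0.015 and 0.025. The highest level of this IQ-motif gene thus lay in the second sextile in all 3 batches. A single deep cell held up to 39 of its UMIs, and how many wells made up these levels was not counted.

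GPD1B, the glycerol-3-phosphate dehydrogenase, was measured at 0.464, 0.263 and 0.382 in margin-low and 0.167, 0.134 and 0.098 in margin-high cells, and the means differed 2.79-fold. FAM212AA had levels of 3.08, 6.23 and 2.82 against 2.07, 2.69 and 0.863. The groups did not overlap but were close, since the lowest margin-low batch of FAM212AA was 2.82 and the highest margin-high batch 2.69. Its fall was late, from 3.54 ± 1.33 in the fourth sextile to 2.48 ± 1.25 in the fifth and 1.22 ± 0.57 in the highest.

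**Figure D1:**
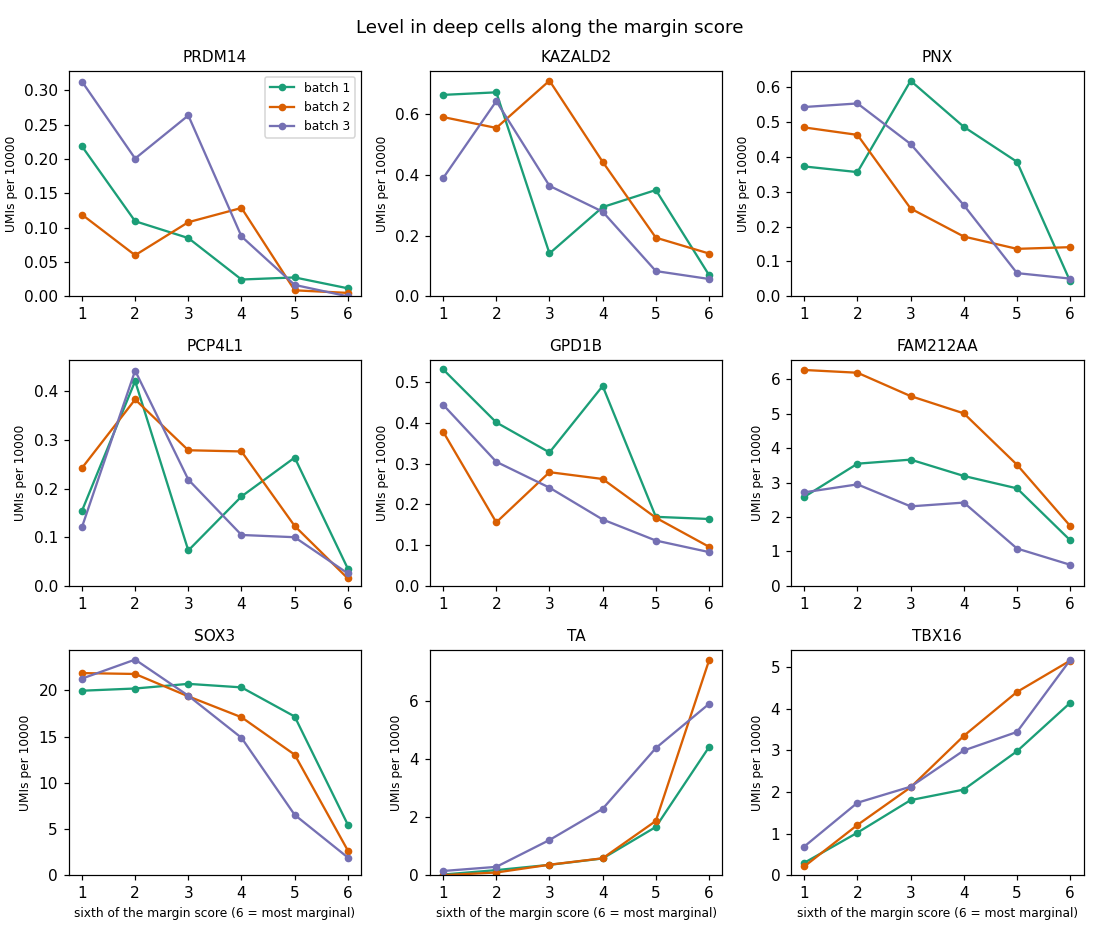
Level (UMIs per 10000, y axis) of the 6 genes and of SOX3, TA and TBX16 in deep cells, by sextile of the margin score (x axis, 6 most marginal), with 1 line per batch. PRDM14 falls to between 0 and 0.012 in the sextile nearest the margin, while PCP4L1 is highest in the second sextile in every batch.

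In a fit over all 8134 genes tested between margin-high and margin-low cells, 34 genes were called lower (0.418%) at an adjusted p under 0.05 (edgeR, Benjamini-Hochberg). The choice of the 6 genes used this contrast, so their places are listed as description. Among the named genes called lower, PRDM14 (log2 difference −3.75, SE 0.64), KAZALD2 (−2.04, SE 0.31) and PNX (−1.84, SE 0.42) came first. SOX3 followed at −1.52, then GPD1B at −1.47, SOX2 at −1.44, SOX19A at −1.35, ALCAMB at −1.20 and FAM212AA at −1.15. The gene just after FAM212AA was SFRP1A at −0.96. PCP4L1, at −1.68, was not among those called. Of the genes of the same families, PRDM4 (−1.003), PRDM12B (−0.87), KAZALD3 (−0.17), FAM212AB (−0.15), PRDM9 (−0.06), GPD1C (0.16) and GPD1L (0.18) were tested in the same fit and were not called. FAM212AB had a UMI in 24.2% and GPD1L in 35.7% of deep cells, but PRDM4 in 5.21% and PRDM12B in 6.51%. Since the 6 genes were chosen on this contrast, a family gene that was not called does not set them apart.

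Against the T-box genes taken singly, the separation was smaller. The TA classes take in all deep cells with no middle tertile left out, so their differences are not measured like those of the margin score. PRDM14 averaged 0.157 ± 0.107 in the 47.3% of deep cells without a TA UMI and 0.066 ± 0.024 in the 405 with TA. In batch 2 these levels were 0.075 and 0.069, close to equal. PNX in batch 1 was 0.379 without and 0.372 with TA, and PCP4L1 in batch 1 was 0.185 without and 0.191 with TA, so that for these genes TA alone did not divide batch 1. GPD1B divided by TA in every batch, with 0.449, 0.311 and 0.376 without TA and 0.250, 0.107 and 0.155 with it. KAZALD2 did as well, with 0.473, 0.611 and 0.367 without TA and 0.261, 0.224 and 0.264 with it.

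TBX16, which has a UMI in most deep cells, was used in tertiles. From its lowest to its highest tertile PRDM14 went from 0.146 ± 0.083 to 0.044 ± 0.014 and PNX from 0.411 ± 0.067 to 0.224 ± 0.086. KAZALD2 in batch 2 was no lower at high TBX16 (0.392 low, 0.415 high). With both T-box genes together, TA 0 and low TBX16 against TA and high TBX16, all 6 genes were lower at the margin in 3 of 3 batches. The genes were chosen for being low there, so this count is description, and the share over all genes was not computed. Between these classes the means differed 6.17-fold for PRDM14, 3.00-fold for KAZALD2, 2.91-fold for GPD1B, 2.86-fold for PCP4L1, 2.46-fold for PNX and 1.87-fold for FAM212AA. Between the outer tertiles of a margin score without TA and TBX16 the means differed 17.2-fold for PRDM14, 4.75-fold for KAZALD2, 2.65-fold for PNX, 2.57-fold for GPD1B, 2.22-fold for PCP4L1 and 2.13-fold for FAM212AA.

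Most of these transcripts were found in a minority of cells. Among deep cells, 11.7% (90 of 768) had a UMI of PRDM14, 15.5% of PCP4L1, 20.6% of GPD1B, 27.1% of KAZALD2, 28.3% of PNX and 86.5% of FAM212AA. The cells that had PRDM14 held a median of 3 UMIs of it, and the highest well held 16. KAZALD2 reached 100 UMIs in 1 well. The top 5% of cells held 75.8% of the UMIs of PRDM14, 68.9% of PCP4L1, 58.3% of KAZALD2, 58.1% of GPD1B and 50.4% of PNX. FAM212AA was spread more evenly, with 23.6% of its UMIs in the top 5% of cells and a median of 13 in the cells that had it.

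To compare shares at 1 depth, each cell was thinned to 10000 UMIs, which kept 993 cells and left out 7. Here and in every result from thinned cells, the classes were set again from the thinned counts. They hold partly other cells than the classes before thinning, so a change with thinning is not one of depth alone. PRDM14 was then found in 19 margin-low cells (7.72%, Wilson 95% interval 5.00 to 11.7%) and in 1 margin-high cell (0.403%, 0.071 to 2.25%). Before thinning the shares were 18.8% and 2.72%, at median depths of 48028 and 47807 UMIs. The thinned shares of PNX were 21.5% and 4.44%, those of KAZALD2 17.9% and 7.26%, and those of GPD1B 15.9% and 8.06%. PCP4L1 had 10.6% and 5.24%, with overlapping intervals of 7.32 to 15.04% and 3.09 to 8.76%. The intervals pool the cells of all batches, so whether they overlap is not a test. By batch, PCP4L1 was in 14.6%, 12.99% and 4.60% of margin-low cells and in 9.64%, 2.56% and 3.45% of margin-high cells. The classes were thus close to each other in batch 3. FAM212AA remained in 59.3% of margin-high cells, against 82.1% of margin-low cells. These intervals cover counting error only, and cells of a batch are not independent replicates.

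**Figure D2:**
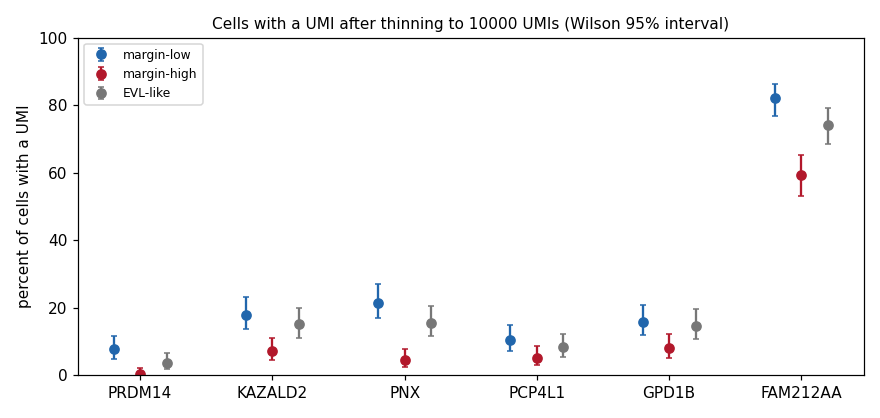
Share of cells with a UMI of each gene (y axis, percent) after thinning to 10000 UMIs, for margin-low and margin-high deep cells and EVL-like cells, with Wilson 95% intervals. For each of the 6 genes the margin-high point is below the margin-low point, from 0.403% against 7.72% for PRDM14 to 59.3% against 82.1% for FAM212AA.

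Detection of several of the genes in 1 cell was counted after thinning. Leaving FAM212AA aside, 49.6% of thinned margin-low cells had none of the other 5 genes, 31.7% had 1, 14.2% had 2 and 4.47% had 3. In margin-high cells the shares were 78.6%, 17.7%, 3.23% and 0.403%. PNX and GPD1B were found together in 14 margin-low cells, where the product of their shares gives 8.40, and PRDM14 and PNX in 8, where it gives 4.09. KAZALD2 and GPD1B were found together in 6, where the product gives 6.98. Of the other pairs among these 5 genes, KAZALD2 and PNX had 13 (product 9.48) and KAZALD2 and PCP4L1 had 6 (4.65). PRDM14 and GPD1B had 5 (3.01), and PCP4L1 and GPD1B had 5 (4.12). PNX and PCP4L1 had 6 (5.60), PRDM14 and KAZALD2 had 3 (3.40), and PRDM14 and PCP4L1 had 2 (2.01). These pairs are counts of few cells, and a transcript present in a cell can be missed at this depth.

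Rank correlations were computed over the thinned counts. Over 741 deep cells, the gene most like PRDM14 among 6787 was PNX, with Spearman's rho of 0.24, 0.10 and 0.23 in batches 1, 2 and 3, followed by RCHY1 and TRIP13. PNX was most like PRDM14, SOX3 and SOX19A, in that order. KAZALD2 was most like TFAP2C, an AP-2 factor of ventral ectoderm (0.20, 0.16 and 0.16), then TUBB4B and SOX3. PCP4L1 came nearest to SAP30L, HINT2 and PSMA1, and GPD1B to KHK, SLC35E1 and BIRC5B, with mean rho no higher than 0.14. These correlations describe cells that share batch, plate and depth, and values this low in sparse counts are no finding.

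FAM212AA, the gene detected in most cells, followed SOX3 across the deep cells. Its rho with SOX3 was 0.25, 0.37 and 0.29 by batch, the highest of 6787 genes, followed by CXCR4B, a chemokine receptor, and SOX19A, another SoxB1 gene. Its rho with TA was −0.13, −0.36 and −0.19. SOX3 was itself lower in margin-high cells (log2 difference −1.52), along the axis on which FAM212AA was chosen. The correlation across the deep cells is therefore given as description. Within the animal-side cells, those below the median of the margin score, the correlation with SOX3 after regression on detected genes was −0.09, −0.03 and 0.04, whereas over all deep cells it was 0.29, 0.37 and 0.35 by the same measure.

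A direct comparison of SOX3-high with SOX3-low cells was made within the animal-side cells, 49.9% of the deep cells, in tertiles of SOX3. The mean margin score was −0.42, −0.45 and −0.48 in SOX3-high and −0.43, −0.40 and −0.47 in SOX3-low cells. TA, a gene of that score, was lower in SOX3-high cells in 3 of 3 batches, at 0.085, 0.032 and 0.239 against 0.366, 0.330 and 0.541. The 8 genes of the score summed to 1.46 to 4.33 in SOX3-high and 1.76 to 6.00 in SOX3-low cells, and their part in the values below was not tested. PNX had levels of 0.525, 0.638 and 0.479 in SOX3-high cells and 0.413, 0.302 and 0.440 in SOX3-low cells. The batches of PNX did not overlap, as was so for 3.14% of the 8001 genes tested in that direction. Its log2 difference was 0.55 (SE 0.37, edgeR adjusted p 0.986). KAZALD2 had 0.671, 1.21 and 0.374 against 0.464, 0.307 and 0.377, which overlap. In batch 2, 1 SOX3-high well held 100 of its UMIs. ADMP, the dorsal reference, also moved with this split. It had 0.834, 0.570 and 1.04 in SOX3-high and 3.16, 2.40 and 0.981 in SOX3-low cells, so batch 3 did not share the difference. The part of the dorsoventral axis in these values was not tested. No gene was called in this fit (0 of 8001, 0%), with 4.57% of genes at an unadjusted p under 0.05, and DESeq2 called 0 as well. PRDM14 (log2 difference −0.05), PCP4L1 (−0.07), FAM212AA (0.21) and GPD1B (−0.69) also missed the threshold. A p that misses the threshold does not show that these levels were alike in both classes. With the same split made in all deep cells, KAZALD2 (log2 1.78, edgeR adjusted p 0.00731), PNX (1.88, adjusted p 0.00741) and FAM212AA (1.14, adjusted p 0.00022) were called, but that split runs along the margin, the axis on which the genes were chosen. Those calls are therefore description, and the share of all genes called in that split is given in the section on processing.

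The dorsoventral comparisons used the same animal-side cells, split by VED, by FOXI1 or by ADMP. The splits share cells and are not independent of each other. Among animal-side cells, those in the highest tertile of VED (42, 42 and 45 cells) were compared with those in the lowest (41, 41 and 45). In this fit 19 of 8072 genes were called (0.235%), 13 higher (0.161%) and 6 lower (0.0743%). The split followed the dorsoventral axis: 9 of 20 tested ventral ectoderm and BMP genes were higher, among them SZL at 5.28, FOXI1 at 4.05, BMP2B at 3.17 and TFAP2C at 1.76 on the log2 scale. Their median was 1.72, against −0.01 over all genes. ADMP, at −3.62, was lower. The list was compiled with earlier results of these data known.

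KAZALD2 was the 1 gene of the 6 that passed the test. Its level was 0.620, 1.21 and 0.644 in VED-high cells and 0.160, 0.203 and 0.196 in VED-low cells. Every VED-high batch was above every VED-low batch, which was so for 3.87% of genes in that direction. The log2 difference was 2.11 (SE 0.36, edgeR adjusted p 0.0274, higher in 3 of 3 batches). The share of wells with a KAZALD2 UMI was 42.9%, 50.0% and 37.8% in VED-high and 26.8%, 29.3% and 22.2% in VED-low cells. In batch 2, 1 VED-high well held 100 KAZALD2 UMIs, 30.4% of those in its class. Median depth was 64396, 65328 and 35313 UMIs in VED-high and 55969, 53812 and 34390 in VED-low cells. TA was 0.163, 0.077 and 0.153 in VED-high and 0.319, 0.225 and 0.828 in VED-low cells. EVE1, another gene of the margin score, went the other way and was called higher in VED-high cells (log2 2.39, edgeR adjusted p 0.00031). The 8 genes of the score summed to 2.70, 1.54 and 6.89 in VED-high and 1.59, 1.69 and 3.78 in VED-low cells. Their part in the result was not tested. The call was lost without batch 2 (log2 1.84, adjusted p 0.447) and when cells were thinned to 10000 UMIs (1.25, adjusted p 0.663). It was also lost when the near-identical pair was left out (1.78, adjusted p 0.134), a pair without KAZALD2 UMIs whose removal moved the VED class of 4 other cells. Over 13 alternatives the difference stayed above 0, from 0.61 to 2.29, with adjusted p from 4.8e-05 to 0.907, and 7 kept the call.

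PCP4L1 moved in the same direction as KAZALD2 but did not pass the test. Its levels were 0.267, 0.468 and 0.392 in VED-high and 0.069, 0.044 and 0.147 in VED-low cells. These did not overlap, as was so for 3.87% of genes in that direction. They rest on few wells, 9, 10 and 12 with a UMI in VED-high and 3, 3 and 7 in VED-low cells. The VED-low wells held 16, 10 and 24 UMIs, and 1 VED-high well of batch 2 held 39. The log2 difference was 2.23 (SE 0.58, edgeR adjusted p 0.345, range 0.0423 to 0.988 over alternatives). DESeq2 (adjusted p 0.0423) and a fit without the detection filter (0.0477) placed it past the threshold.

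PRDM14 lay the other way. It had 0.058, 0.033 and 0.129 in VED-high and 0.216, 0.123 and 0.448 in VED-low cells, lower in 3 of 3 batches, although the highest VED-high batch (0.129) exceeded the lowest VED-low batch (0.123). The VED-high cells held 45 PRDM14 UMIs, 23.0% of those in both tertiles. The log2 difference was −1.84 (SE 0.60, edgeR adjusted p 0.623, range 0.1 to 1 over alternatives). In batch 3 the summed germ cell markers were also higher in VED-low cells, 28.5 against 12.5 UMIs per 10000, and their part in the result was not tested. PNX (0.68, SE 0.43), GPD1B (−0.60, SE 0.44) and FAM212AA (−0.21, SE 0.17) each had an edgeR adjusted p of 0.975. With the split made in all deep cells FAM212AA was called lower with VED (−0.69, edgeR adjusted p 0.0204). There VED itself rose with the margin score, from a mean of 15.5 in the lowest tertile to 28.6 in the highest. That split therefore runs along the axis on which FAM212AA was chosen, and the call is description. The share of all genes called in it is given in the section on processing.

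**Figure D3:**
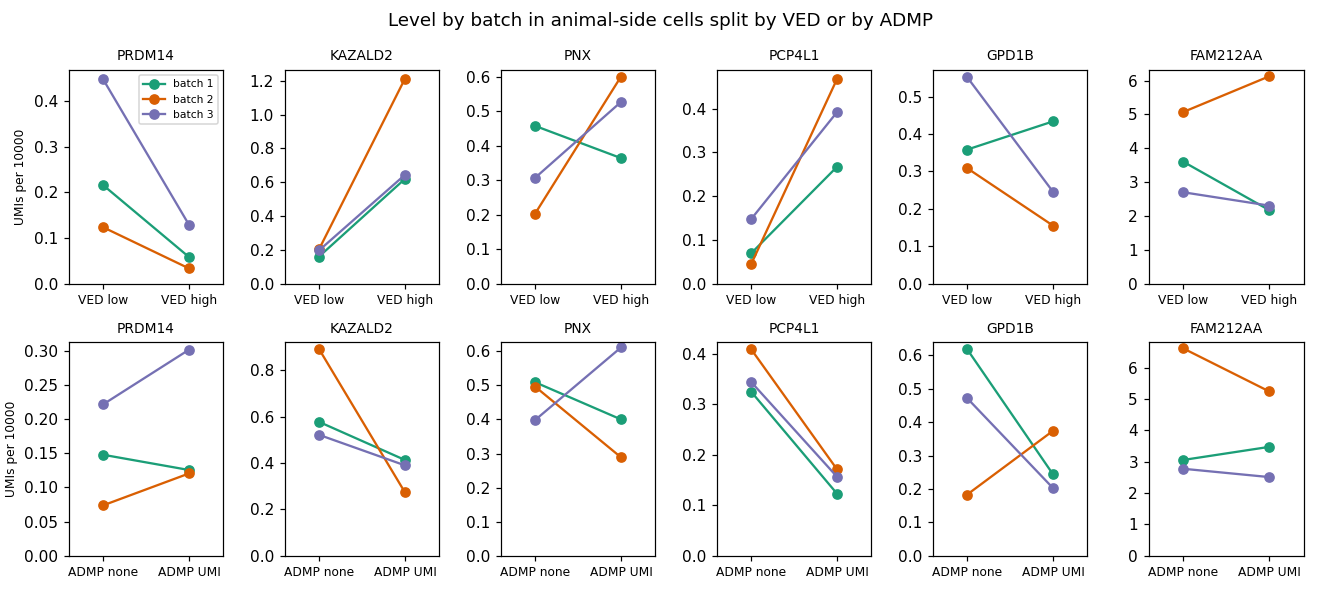
Level (UMIs per 10000, y axis) of the 6 genes in animal-side cells, split by VED (top, lowest and highest tertile) and by ADMP (bottom, none and at least 1 UMI), with 1 line per batch. KAZALD2 and PCP4L1 are higher with VED and lower with ADMP in all 3 batches, while PRDM14 is lower with VED in all 3.

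The 87 animal-side cells with at least 1 FOXI1 UMI, 22.7% of them, were set against those with none. Here 5 of 8051 genes were called (0.0621%), SZL, VED, APOC1L and BAMBIA higher and ADMP lower, and none of the 6 genes. GPD1B was lower without overlap, 0.248, 0.094 and 0.281 against 0.464, 0.314 and 0.355, as were 5.96% of genes (log2 difference −0.92, SE 0.46, edgeR adjusted p 0.994). KAZALD2 had 0.515, 0.918 and 0.721 with FOXI1 and 0.482, 0.536 and 0.333 without, higher in 3 of 3 batches with overlap (0.70, SE 0.32, edgeR adjusted p 0.994). PRDM14 had 0.064, 0.014 and 0.134 against 0.156, 0.116 and 0.321 (−1.68, SE 0.70, edgeR adjusted p 0.994). With FOXI1 these levels rest on 10, 2 and 21 UMIs, in 3, 2 and 7 wells. Over the alternatives the log2 difference of PRDM14 ran from −3.21 to 0.21. PCP4L1 had 0.235, 0.702 and 0.172 with FOXI1 and 0.212, 0.198 and 0.281 without, which overlap (0.48, SE 0.53, edgeR adjusted p 0.996). Its batch 2 level with FOXI1 rests on 6 wells, 1 of which held 39 UMIs. PNX (0.34) and FAM212AA (−0.09) also missed the threshold. Median depth was higher with FOXI1 in every batch, for example 40800 against 34190 UMIs in batch 3, and the p53 and stress genes summed to 18.3 to 24.7 with FOXI1 and 18.1 to 19.8 without. The part of depth and stress in these values was not tested.

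With ADMP, the dorsal reference, 48.6% of animal-side cells had a UMI and were set against those with none. No gene was called in this fit (0 of 8051, 0%), with 393 (4.88%) at an unadjusted p under 0.05, while DESeq2 called 10. PCP4L1 was 0.123, 0.171 and 0.157 with ADMP and 0.326, 0.410 and 0.345 without it. KAZALD2 was 0.413, 0.273 and 0.390 with ADMP and 0.577, 0.891 and 0.521 without it. Both were lower with ADMP without overlap, as were 3.35% of genes. Their log2 differences were −1.29 (SE 0.37, edgeR adjusted p 0.856) and −0.89 (SE 0.32, edgeR adjusted p 0.946). PCP4L1 had a UMI in 11, 7 and 11 wells with ADMP and in 12, 14 and 17 without. KAZALD2 was in 35.4%, 37.5% and 23.1% of wells with ADMP and in 40.7%, 32.4% and 34.3% without. In batch 2, 1 well without ADMP held 100 KAZALD2 UMIs. Median detected genes were 3744, 3456 and 3344 with ADMP and 3312, 3080 and 3014 without, a difference whose part was not tested. PRDM14 had 0.126, 0.121 and 0.302 with ADMP and 0.148, 0.074 and 0.222 without, which overlap (0.28, SE 0.47, edgeR adjusted p 0.987). PNX (−0.20), GPD1B (−0.56) and FAM212AA (−0.12) had adjusted p of 0.981 to 0.987. TA was higher with ADMP in 3 of 3 batches, with means of 0.460 and 0.138, while the 8 genes of the margin score summed to 1.63 to 5.42 with ADMP and 1.61 to 4.90 without. Their part in these values was not tested.

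All 6 genes were also counted in EVL-like cells. Of 8295 genes tested between EVL-like and deep cells, 85 were higher (1.02%) and 1 was lower (0.0121%), and none of the 6 was called. PRDM14 had 0.017, 0.017 and 0.065 in EVL-like and 0.078, 0.072 and 0.149 in deep cells. PCP4L1 had 0.133, 0.109 and 0.117 against 0.188, 0.226 and 0.163. Both were lower without overlap, as were 4.92% of genes, with log2 differences of −1.77 (SE 0.55, edgeR adjusted p 0.300) and −0.67 (SE 0.36, edgeR adjusted p 0.672). KAZALD2 had 0.196, 0.143 and 0.394 against 0.361, 0.447 and 0.297. PNX (log2 difference 0.07), FAM212AA (−0.09) and GPD1B (−0.18) had adjusted p of 0.891 to 0.954. The EVL-like levels of PRDM14 came from 9, 4 and 20 UMIs, in 16 cells. After thinning, PNX had a UMI in 15.5% of EVL-like and 14.7% of deep cells and GPD1B in 14.7% and 12.4%. For PRDM14 the thinned shares were 3.57% and 4.86%, and for PCP4L1 8.33% and 9.18%, so the shares of both were close. KAZALD2 had 15.1% and 14.6%, and FAM212AA 74.2% and 73.8%. Of 10 tested EVL markers, 7 were called higher in EVL-like cells. Before thinning, however, their mean levels of TA (2.17 against 1.73) and VED (19.2 against 20.8) were near those of deep cells. With 444 kept cells between posterior probabilities of 0.1 and 0.9, the EVL-like class may hold deep cells. Their share was not tested, so near-equal values here do not show expression in the EVL.

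**Figure D4:**
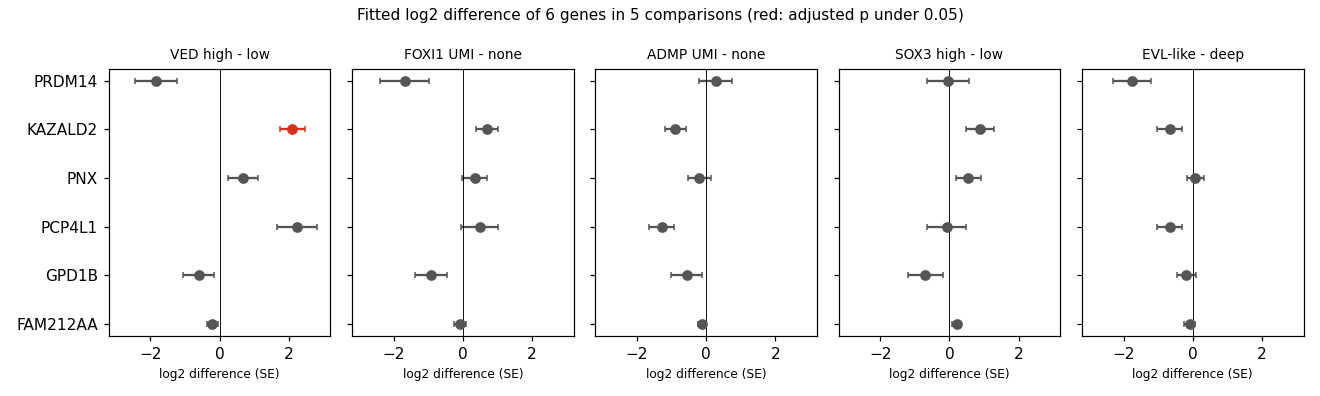
Fitted log2 difference (x axis, bars SE) of the 6 genes in the 5 tested comparisons, from sums per class and batch. KAZALD2 between VED-high and VED-low cells, at 2.11, is the 1 value with an adjusted p under 0.05.

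PRDM14 was looked for in germ cells because of its role in mouse. In 9 cells with at least 5 UMIs each of NANOS3 and DND1, 3 in every batch, PRDM14 had 0 UMIs. As a rough 95% bound (3 divided by the 9 cells, taken as independent), up to 33.3% of such cells could carry a UMI. This bounds cells with a UMI, not cells that express the gene. PRDM14 was found in 10.6% of kept cells, which is under that bound, so the 0 does not set the 9 cells apart. Of the cells with PRDM14, 27.4% had at least 3 of 6 germ cell markers, against 21.8% of all kept cells. A number of markers that so many of all cells reach does not pick out germ cells.

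The batches differed in level. In deep cells FAM212AA was 2.85, 4.80 and 2.01 and PRDM14 was 0.078, 0.072 and 0.149 in batches 1, 2 and 3. Within batch 1 PRDM14 was 0.018, 0.073, 0.041 and 0.151 on plates 5, 6, 7 and 8, from 5, 19, 20 and 71 UMIs. KAZALD2 and PNX were also highest on plate 8, at 0.517 and 0.519. FAM212AA was lowest there, at 2.33, and highest on plate 6, at 4.01. The plates of batch 1 thus spanned more than the batches for PRDM14 and less than the batches for FAM212AA. Since the splits were made within batches, levels of batches were not compared by a test. Plate entered neither the splits nor the fits, so it may differ between the classes of batch 1, and its part was not tested.

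**Figure D5:**
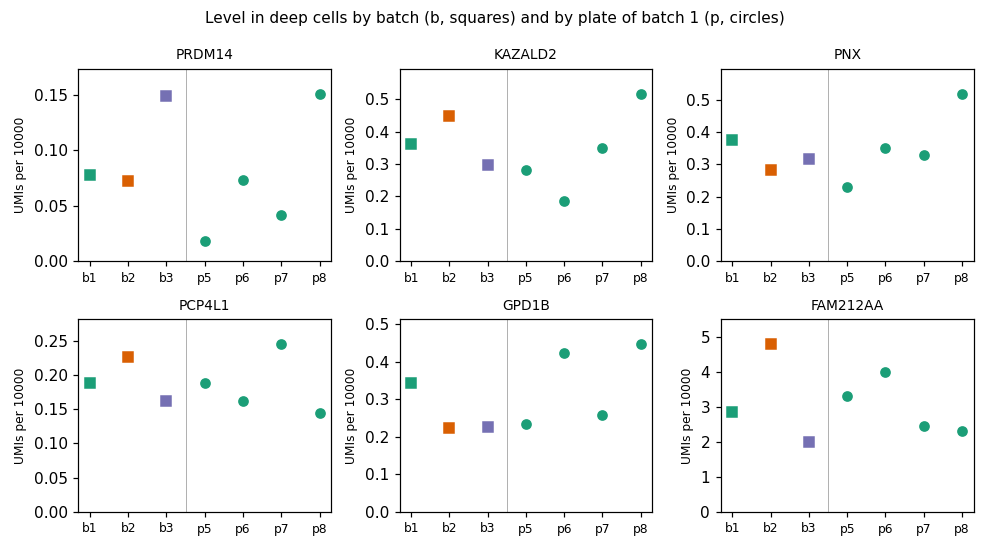
Level (UMIs per 10000, y axis) of each gene in deep cells of batches 1 to 3 (squares, b1 to b3) and of the 4 plates of batch 1 (circles, p5 to p8). PRDM14 spans 0.018 to 0.151 over the plates of batch 1, against 0.072 to 0.149 over the batches.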

How the data were processed

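The authors deposited 1 table of UMI counts per gene and well. Per the labels' protocols, 5′ transcript ends carrying random tags were sequenced by a strand-specific template-switching method. Per the submitters' processing notes, Bowtie and the build Zv9 were used (version not given in the sources used here). Wells with under 2000 detected genes were left out. EVL-like cells came from a Gaussian mixture with 2 components. Margin, VED and SOX3 classes were tertiles within a batch, after regression of log2(1 + UMIs per 10000) on detected genes, and doublets were not called (39 wells had over 5000 genes). Within each batch the counts of a class were added up, and edgeR 4.0.16 compared the totals by its quasi-likelihood test (TMM factors, batch as a block, Benjamini-Hochberg adjustment), over genes detected in 5% of compared cells, leaving out class-defining genes. Batches pair the classes because both classes come from the same batch. DESeq2 1.42.0 was an alternative. R 4.3.3 and Python 3.11.15 were used, and the fit was tested on simulated data. The simulated sums had the same dispersion for every gene. They therefore do not show how the fit performs on genes whose UMIs lie in few wells. The 6 genes, the lists and the splits were chosen with earlier results of these data known. The named genes are the 6, their references and seeds, the 3 most correlated genes of each, neighbours in the margin order, and called genes of the lists. The planned correlation on regressed values orders cells at 0 by detected genes, so thinned counts were used for the 5 sparse genes. The germ cell threshold and the near-identical pair were chosen after seeing the data.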

Additional observations from a re-analysis of the deposited data

How the results depend on the processing

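The share of tested genes called moved with the setting. For the VED split (0.235%) it was 0.496% with DESeq2, 0.425% without the detection filter, 0.136% with no replicate block, 0.125% in the lowest tertile of the margin score and 0.879% in all deep cells, and 0.161% to 0.248% when 1 batch was left out. For FOXI1 (0.0621%) it was 0.149%, 0.114%, 0%, 0.0249% and 0.11% in the same order, 0.0295% with thinned cells, 0.0372% without the near-identical wells and 0.0497% to 0.149% with a batch left out. For ADMP (0%) it was 0.0497% with RLE factors, 0.124% with DESeq2, 0.136% without the filter, 0.0623% with narrower classes, 0.0374% in the lowest tertile, 0.147% in all deep cells, 0.133% with thinned cells and 0% to 0.174% with a batch left out. For SOX3 (0%) it was 0.0947% without the filter, 0.0125% with narrower classes, 2.1% in all deep cells and 0% to 0.025% with a batch left out. For the EVL comparison (1.04%) it was 1.68% with DESeq2, 1.35% without the filter, 1.86% with narrower classes and 1.76% to 1.82% with a batch left out, and the cause was not tested.

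Without the replicate block 0 genes were called in the FOXI1 split, and KAZALD2 kept its call in the VED split (log2 2.16, adjusted p 0.0236). Besides the cases above, KAZALD2 lost its call with narrower VED classes (1.94, adjusted p 0.223), in the lowest tertile (2.21, 0.0864) and in all deep cells (0.61, 0.907). The VED split in all deep cells, like the SOX3 split, runs along the margin. The gene values that turned sign were none of them called. In all deep cells these were PNX by VED (−0.52), FAM212AA by FOXI1 (0.052) and ADMP (0.033), PNX by ADMP (0.063), and PRDM14 (2.57), PCP4L1 (1.47) and GPD1B (1.26) by SOX3, a split that in all deep cells runs along the margin. In the lowest tertile they were PNX (−0.36) and FAM212AA (0.021) by FOXI1, which for FAM212AA was 0.10 with no replicate block. With thinned cells they were PRDM14 (0.21) and PNX (−0.18) by FOXI1, PNX (0.075) and FAM212AA (0.024) by ADMP, and PNX (−0.025) and FAM212AA (0.18) in the EVL comparison. PRDM14 by SOX3 was 0.0053 without wells over 5000 genes, and PCP4L1 by SOX3 was 0.38 with narrower classes. With a batch left out, the range was −0.48 to 0.049 for FAM212AA by VED, −0.24 to 1.04 for PCP4L1 and −0.43 to 0.14 for FAM212AA by FOXI1, −0.59 to 0.11 for PNX and −0.26 to 0.011 for FAM212AA by ADMP, −0.20 to 0.037 for PRDM14 and −0.57 to 0.28 for PCP4L1 by SOX3, and −0.055 to 0.15 for PNX and −0.32 to 0.21 for FAM212AA in the EVL comparison.

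PRDM14 had a UMI in 90 of 768 deep cells, and cells with few molecules of it can be missed at these depths.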
